A study of Mus musculus with 35 samples.

Results

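The Skint genes are 10 of the 36106 genes in the count table, Skint1 to Skint10, taken by their symbols, and all 10 symbols were found. The family was picked with earlier results of these data known. Its adjusted p-values therefore describe where each gene stands among all genes, and are no independent evidence that the family changed. They were followed in 35 libraries of bulk skin RNA from 10-week-old females of the inbred mouse strain C57BL/6J. Radiated skin, on the left flank, had received 25 Gy in 420 seconds (3.6 Gy per min) and was biopsied at weeks 1, 2, 3 or 4, with 4 libraries a week. Control skin, also 4 libraries a week, carries the same week and number labels, and the series has 19 mice in all, so radiated and control skin of a shared week and number were taken as 1 mouse. The sham group, 3 libraries, came from mice that were not radiated, and no genotype or agent other than radiation is given for any group. The labels describe shaving of the treated skin and biopsy of the radiated site, and do not give the body site of control skin or say whether it was shaved. Weeks are compared between different mice, and p-values measure the spread between these libraries.

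Skint genes encode membrane proteins with immunoglobulin-like outer domains, related to the butyrophilins, and in mice they are expressed mainly by keratinocytes and thymic epithelium. Skint1, the founding member, is required for the thymic selection and epidermal seeding of dendritic epidermal T cells (DETCs), gamma-delta T cells with a single invariant receptor that sit among keratinocytes and respond when these are stressed or wounded. The roles of the other members are less well known, and in wounded mouse skin Skint3 and Skint9 have been tied to signals from keratinocytes to DETCs.

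On GRCm38 the 10 genes form 1 cluster on chromosome 4, at chr4:111919392-113999503, a stretch of 2.08 Mb. Their order is Skint8, Skint7, Skint1, Skint4, Skint3, Skint9, Skint2, Skint10, Skint6 and Skint5, and all 10 are annotated as protein coding. Skint5, Skint6, Skint9 and Skint10 are on the minus strand, and the other 6 are on the plus strand. The start sites of 3 members are shown by the 250 bases before them, from RefSeq on GRCm38.p6 and read 5′ to 3′ on the gene's strand, because Skint5 and Skint6 are the closest pair by promoter and had among the largest decreases described below, and Skint1 is the member with the known role in T-cell selection. Capitals mark a TATA box (TATAAA) or a CCAAT box (CCAAT) on either strand.
Skint1, chr4:112006019-112006268, plus strand: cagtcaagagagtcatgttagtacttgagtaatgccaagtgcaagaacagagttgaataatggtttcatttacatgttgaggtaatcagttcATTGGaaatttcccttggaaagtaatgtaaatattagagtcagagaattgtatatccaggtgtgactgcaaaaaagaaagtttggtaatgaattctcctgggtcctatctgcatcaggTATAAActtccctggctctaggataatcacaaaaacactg
Skint5, chr4:113999504-113999753, minus strand: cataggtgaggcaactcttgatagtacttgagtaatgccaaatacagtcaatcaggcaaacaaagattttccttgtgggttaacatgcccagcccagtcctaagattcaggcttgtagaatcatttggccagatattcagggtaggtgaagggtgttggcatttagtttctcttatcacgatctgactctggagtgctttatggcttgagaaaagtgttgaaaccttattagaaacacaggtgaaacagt
Skint6, chr4:113286974-113287223, minus strand: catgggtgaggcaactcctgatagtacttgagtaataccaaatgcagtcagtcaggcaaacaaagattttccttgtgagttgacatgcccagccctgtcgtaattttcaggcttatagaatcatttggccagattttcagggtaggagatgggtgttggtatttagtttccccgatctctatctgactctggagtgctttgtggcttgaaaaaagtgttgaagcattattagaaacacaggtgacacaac

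Over the 300-base windows that RefSeq gives (250 bases before and 50 after the start), Skint5 and Skint6 share 269 identical bases, or 89.7%. A promoter table entry was found for all 10 members, and Skint4 has a pair of start sites, which makes 11 windows. The TATA box was in 7 of the 11, against 13.6% of 32851 mouse promoters of the same length, and the CCAAT box in 4 of 11, against 37.4%. The windows of Skint3, Skint5 and Skint10 do not hold the TATA letters, and Skint6 holds them in the bases after its start site, which are not printed. The AP-1 letters (TGANTCA), present in 7.81% of promoters, were in none of the 11 windows. The grainyhead-like letters (AACCNGTT) were in Skint8 alone (background 2.09%), and the KLF letters (CCCNCCC) were in Skint4 alone (background 48.1%). These are matches of letters on both strands, and the capitals printed above do not overlap.

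All 10 Skint genes were expressed in skin that had not been radiated. Levels are given as CPM, a gene's counts per 1e+06 counts of its library after TMM scaling, as mean ± SD over libraries. Summed over the members, they made up 429.6 ± 95.6 CPM in sham skin (n = 3) and, in control skin (n = 4 each), 484 ± 27.6 CPM at week 1, 536 ± 178 at week 2, 471 ± 68.5 at week 3 and 709 ± 88.8 at week 4. Skint3 was the largest part of that sum in both, with 29.7% in sham skin and 33.9% in control skin of week 4. These are shares of reads, not adjusted for transcript length. Skint2 was the smallest part in sham skin, at 1.68%. Library totals ran from 17362853 to 28487885 counts, so the floor of 3 counts used here for detection lies between 0.105 and 0.173 CPM.

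Because the transcripts differ in length, members were ranked on CPM per kilobase of their longest coding transcript. In control skin of week 4 Skint3 was highest with 63.4 ± 18.2 (SD, n = 4), followed by Skint1 with 37.7 ± 2.72. Then came Skint9 with 31.6, Skint10 with 27.7, Skint6 with 26.3, Skint5 with 25.6, Skint7 with 19.1 and Skint4 with 16.6 CPM per kilobase, and no neighbours from Skint9 to Skint4 differed by more than the sum of their SDs. Skint8, with 10.2 ± 1.76, and Skint2, with 4.25 ± 1.15, were lowest and stood apart from the others and from each other. In sham skin the order began with Skint1 (34.5 ± 10.3) and Skint3 (33.9 ± 11.9), which were within their spread, and only Skint8 and Skint2 were neighbours that differed beyond it. The order depends on the length used: over the union of annotated exons, Skint1 is in place 5 rather than 2 in control skin of week 4, while Skint3 stays first.

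In the plot of levels by library, radiated skin of weeks 1 and 2 lies near control skin, and radiated skin of weeks 3 and 4 lies mostly below it. The radiated sum was 404 ± 98.0 CPM at week 1, 397 ± 86.4 at week 2, 78.4 ± 72.7 at week 3 and 76.2 ± 45.0 at week 4 (SD, n = 4 each).

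**Figure D1:**
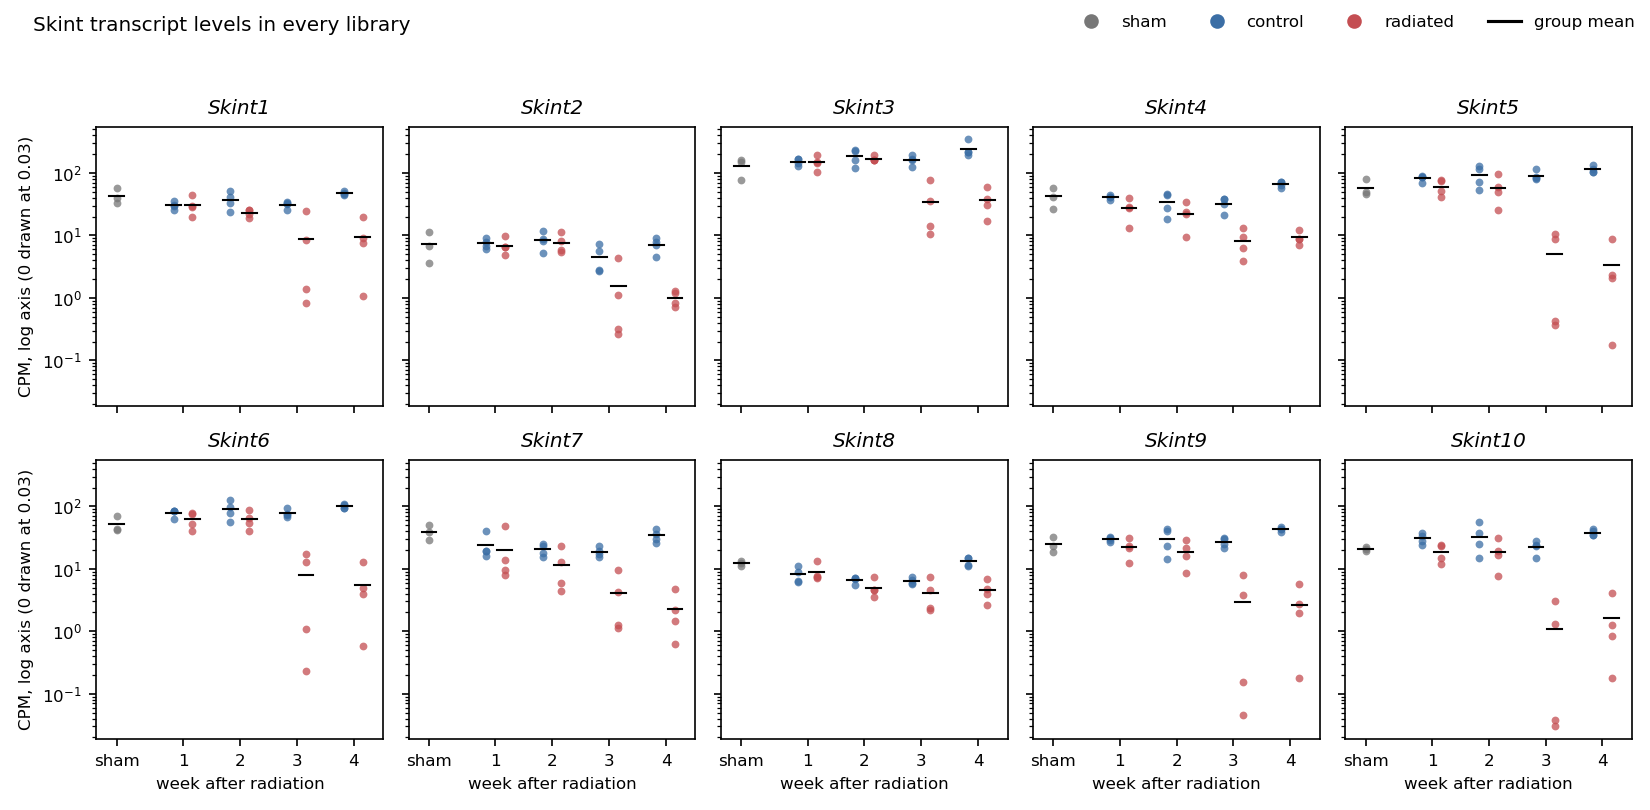
Levels of the 10 Skint genes in every library, in CPM on a log axis, by week after radiation. Points are libraries (grey sham, blue control, red radiated), black bars are group means, and a library at 0 is drawn at 0.03 CPM. The radiated libraries of weeks 3 and 4 spread widely and mostly below the control libraries, except for Skint8 and Skint2 in radiated replicate 4 of week 3, with Skint10 at 0 in 1 radiated library of week 3.

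At weeks 1 and 2 no Skint gene passed the test between radiated and control skin. The test was edgeR's quasi-likelihood F test with Benjamini-Hochberg adjustment over all genes tested, and a gene was called with an adjusted p under 0.05. Of all genes tested, 0% were called at week 1 and 0.00577% at week 2. The members' log2 fold changes, radiated against control, ran from -0.73 to 0.12 at week 1 and from -0.84 to -0.12 at week 2, with medians of -0.29 and -0.65. Over all genes tested the medians were 0.05 and -0.0025. An unadjusted p under 0.05 was reached by 2 members at week 1 (Skint10 and Skint4) and by 1 at week 2 (Skint1). The share of all genes under that unadjusted threshold is not given here. Neither DESeq2 nor edgeR with the replicate block called a member.

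Skint10 came closest at week 1. Its radiated libraries held 23.4, 11.8, 15.0 and 23.8 CPM and its control libraries 24.3, 37.4, 33.2 and 28.1 CPM. These ranges do not overlap, and the fitted log2 change was -0.73 ± 0.24 (SE, adjusted p = 0.258). Skint1 had the smallest adjusted p at week 2, with 25.3, 25.8, 22.3 and 19.2 CPM in radiated and 23.8, 50.8, 40.6 and 33.5 CPM in control skin. Its ranges overlap, and the fitted log2 change was -0.69 ± 0.23 (SE, adjusted p = 0.223).

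At week 3 all 10 Skint genes had a log2 fold change below 0 in radiated against control skin, and 7 passed the test and were called lower: Skint3, Skint4, Skint5, Skint6, Skint7, Skint9 and Skint10. At week 4 all 10 were called lower. All 10 passed the low-count filter in both weeks, 5 of them at week 3 (Skint2, Skint5, Skint6, Skint9 and Skint10) and 3 at week 4 (Skint5, Skint9 and Skint10) through the control libraries, since 1 or 2 radiated libraries were below its minimum. With no filter the counts were 7 and 10. Of the members above the filter's minimum in every library, 3 of 5 were called lower at week 3 and 7 of 7 at week 4. Of all 17653 genes tested at week 3, 27.2% were called in either direction and 13.6% were called lower, and at week 4 the shares were 48.4% and 24.2% of 17850. The members' median log2 fold change was -2.19 at week 3 and -3.37 at week 4, beside medians over all genes of 0.08 and 0.02. Scaling by total counts moved the week 3 median of all genes to 0.32, left 6 members called, and turned the split of all called genes from 2408 higher and 2397 lower into 4054 higher and 1270 lower. The week 3 count was 4 without control replicate 1 and 4 without control replicate 3. It was 10 without radiated replicate 4 (the radiated library with the highest Skint levels), and 9 where all 35 libraries shared 1 fit.

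**Figure D2:**
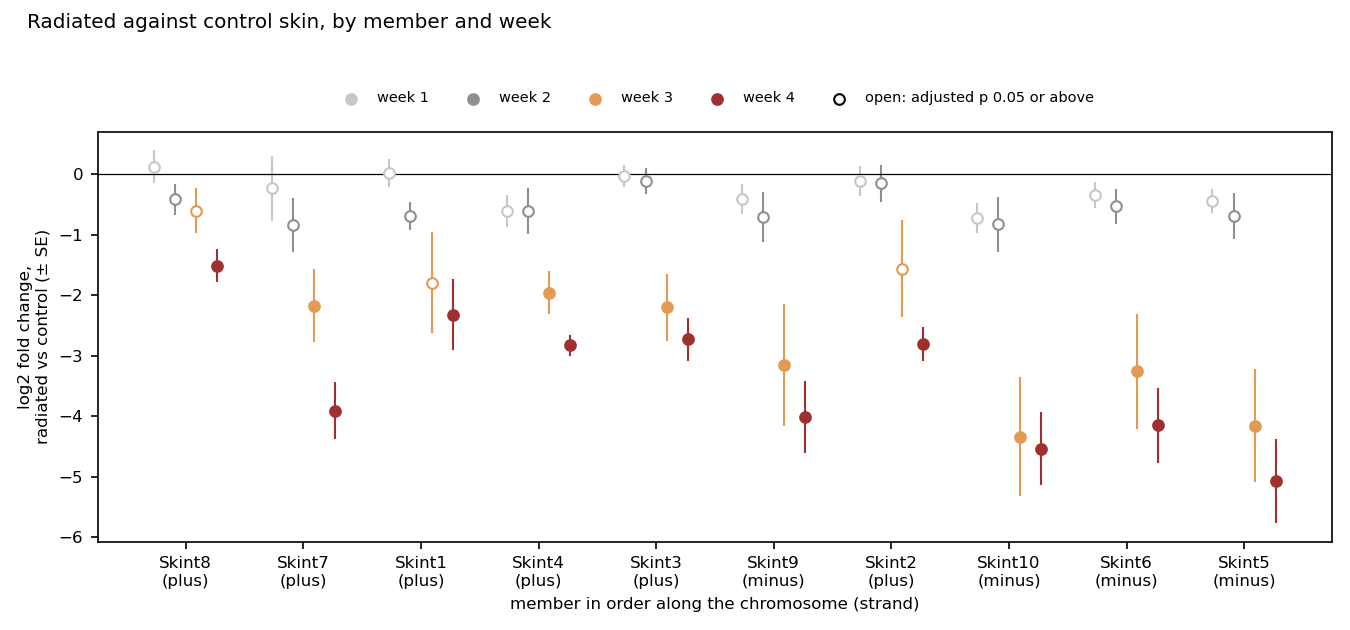
Log2 fold change of radiated against control skin (± SE, 4 libraries a group) for each member in its order along the chromosome, with its strand, at weeks 1 to 4. Filled points have an adjusted p under 0.05. At week 4 all 10 are filled, from -1.51 for Skint8 to -5.07 for Skint5.

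Skint1, the member required for DETC selection, shares 0.232% of the 31-base words of its transcripts with other genes, the smallest share of the 10. At week 3 its radiated libraries held 0.823, 8.58, 1.37 and 24.8 CPM (replicates 1 to 4) against 32.6, 31.6, 34.5 and 25.7 CPM in control skin. Replicates 1 and 3 were near 1 CPM, replicate 4 was just under the lowest control library, and the fitted log2 change of -1.79 ± 0.84 (SE, adjusted p = 0.139) did not pass the test. At week 4 it had 9.01, 20.1, 7.63 and 1.07 CPM in radiated and 51.9, 48.5, 45.4 and 44.3 CPM in control skin. The ranges are well apart, with replicate 4 lowest, and Skint1 fell by 2.32 on the log2 scale (SE 0.58, adjusted p = 0.00871), in 4 of 4 pairs.

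Skint3, the member with the highest level per kilobase in control skin, ranked first in radiated skin of both weeks too, though its lead over Skint1 there was within the spread. It had 14.0, 35.5, 10.5 and 77.9 CPM in radiated and 194, 124, 165 and 161 CPM in control skin at week 3, and 38.4, 60.4, 30.3 and 16.8 against 347, 217, 218 and 193 CPM at week 4. Every radiated library was below every control library in both weeks, and control replicate 1 of week 4 stood above the other 3. The log2 fold changes were -2.20 ± 0.55 (SE, adjusted p = 0.0176) and -2.73 ± 0.36 (SE, adjusted p = 0.000189). Skint3 made up 46.9% of the summed Skint CPM in radiated skin of week 3 and 49.9% at week 4.

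Skint4, whose function is not well described, had the smallest adjusted p of the members in both weeks. At week 3 its radiated libraries held 6.22, 9.47, 3.85 and 13.2 CPM against 37.9, 21.1, 32.2 and 38.3 CPM in control skin, and at week 4 8.79, 12.4, 8.76 and 7.05 against 71.6, 56.7, 72.5 and 64.2 CPM. The groups do not overlap in either week, and the SD of the radiated libraries of week 4 was 2.26 CPM. The log2 fold changes were -1.96 ± 0.36 (SE, adjusted p = 0.00488) and -2.83 ± 0.17 (SE, adjusted p = 3.37e-06).

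Skint2, the member with the lowest level per kilobase in sham and control skin, had 0.32, 1.12, 0.267 and 4.42 CPM in radiated and 2.66, 2.74, 7.25 and 5.65 CPM in control skin at week 3. Radiated replicate 4 overlaps the control libraries, and the fitted log2 change of -1.56 ± 0.80 (SE, adjusted p = 0.171) did not pass the test. At week 4 the radiated libraries, at 1.28, 1.20, 0.838 and 0.714 CPM, lay below the control libraries, at 7.89, 9.16, 4.57 and 6.92 CPM. The fitted log2 change was -2.80 ± 0.28 (SE, adjusted p = 4.03e-05).

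The largest fold changes were those of Skint5, Skint6, Skint9 and Skint10, the 4 genes on the minus strand. Skint5, which has the longest coding sequence of the members, had 0.366, 8.86, 0.419 and 10.4 CPM in radiated and 114, 78.8, 84.8 and 84.5 CPM in control skin at week 3. At week 4 it had 2.09, 8.81, 2.35 and 0.178 and 104, 117, 135 and 105 CPM. Its radiated libraries were either near the floor, as in replicates 1 and 3 of week 3 and replicate 4 of week 4, or still below the lowest control library by a wide margin. The log2 fold changes were -4.16 ± 0.93 (SE, adjusted p = 0.0109) and -5.07 ± 0.69 (SE, adjusted p = 0.000252), the latter a 33.7-fold lower level.

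Skint6, the member with the most similar promoter to Skint5, showed the same pattern. Radiated and control libraries held 0.229, 13.0, 1.10 and 17.6 and 92.9, 74.5, 72.2 and 68.3 CPM at week 3, and 3.88, 13.0, 4.94 and 0.58 and 105, 93.3, 110.3 and 93.3 CPM at week 4. The same libraries were lowest as for Skint5. The log2 fold changes were -3.25 ± 0.95 (SE, adjusted p = 0.0312) and -4.15 ± 0.62 (SE, adjusted p = 0.000437). The week 3 call of Skint6 was lost without each control library in turn (adjusted p up to 0.0649).

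Skint10 was at or near 0 in some radiated libraries. At week 3 these held 0, 1.31, 0.0381 and 3.09 CPM, from 0, 28, 1 and 67 counts, against 28.1, 14.8, 24.1 and 23.1 CPM in control skin. Replicates 1 and 3 are under the floor of 3 counts, so Skint10 was not detectable there at this depth. At week 4 it had 1.28, 4.11, 0.838 and 0.178 CPM in radiated and 34.2, 40.6, 42.7 and 34.9 CPM in control skin, and the libraries of the groups do not overlap. The log2 fold changes were -4.34 ± 0.98 (SE, adjusted p = 0.0114) and -4.54 ± 0.60 (SE, adjusted p = 0.000205), and mean radiated levels were 4.92% and 4.21% of the control means.

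Skint9, one of the members tied to wound signals, had 0.0457, 3.78, 0.152 and 8.01 CPM in radiated and 30.2, 21.2, 24.9 and 30.9 CPM in control skin at week 3. Replicate 1 of that radiated group held 1 count, under the floor. At week 4 the values were 2.69, 5.82, 1.93 and 0.178 and 47.0, 43.7, 43.2 and 39.6 CPM. The groups are apart in both weeks, with log2 fold changes of -3.15 ± 1.01 (SE, adjusted p = 0.0439) and -4.01 ± 0.60 (SE, adjusted p = 0.000423). The week 3 call is near the threshold: it was lost with total-count scaling (adjusted p = 0.0529) and without each of 6 libraries in turn.

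Skint7 and Skint8, the first genes of the cluster, are near-copies with different fold changes, a difference that was not tested. Skint7 had 1.14, 4.29, 1.26 and 9.67 CPM in radiated and 19.2, 17.1, 22.9 and 15.6 CPM in control skin at week 3, and 2.18, 4.69, 1.47 and 0.625 against 43.7, 36.5, 30.4 and 26.2 CPM at week 4. All radiated libraries were below all control libraries in both weeks, with log2 fold changes of -2.18 ± 0.60 (SE, adjusted p = 0.0258) and -3.91 ± 0.47 (SE, adjusted p = 0.000119). The week 3 call of Skint7 was lost without radiated replicate 2, control replicate 1 or control replicate 3. Skint8 had 2.20, 4.52, 2.40 and 7.42 CPM in radiated and 7.29, 5.73, 6.55 and 5.88 CPM in control skin at week 3. Radiated replicate 4 was above every control library there, and the fitted log2 change of -0.60 ± 0.37 (SE, adjusted p = 0.254) did not pass the test. At week 4 Skint8 had 4.82, 6.87, 3.98 and 2.59 against 15.0, 11.3, 15.2 and 11.0 CPM, groups that do not overlap, and the fitted log2 change of -1.51 ± 0.27 (SE, adjusted p = 0.00122) was the smallest of the 10.

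Kallisto, the tool that assigned reads, splits reads that fit several transcripts, which can make the estimates of near-copies less certain. How uncertain they are was not measured. Counts of Skint4, Skint7 and Skint8 were not whole numbers in all 35 libraries, those of Skint5 and Skint6 were not whole in 24, and those of Skint1, Skint2, Skint3, Skint9 and Skint10 were whole in all, a count within 1e-06 of a whole number being taken as whole. Aligned coding sequences were 94.5% identical between Skint7 and Skint8, 88.5% between Skint5 and Skint6 and 86.1% between Skint9 and Skint10. Of the 31-base words in the transcripts of Skint8, 17.5% also occur in another gene, and the shares were 12.7% for Skint7, 11.8% for Skint6, 9.45% for Skint5 and at most 6.71% for the other 6. Skint9 and Skint10, with shares of 1.94% and 0.643%, gave whole counts in every library, while Skint4, with 2.72%, gave them in none. How the splitting bears on the difference between Skint7 and Skint8 was not tested.

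Grouped by strand, a split made after the values were seen, the 4 minus-strand members and the 6 plus-strand members did not overlap in their fold changes of radiated against control skin at weeks 3 and 4. At week 3 the log2 fold changes ran from -4.34 to -3.15 on the minus strand and from -2.20 to -0.60 on the plus strand. At week 4 the ranges were -5.07 to -4.01 and -3.91 to -1.51. All 4 minus-strand members at week 3, and 3 of them at week 4, passed the low-count filter through the control libraries, where they are higher. The ranges did overlap at weeks 1 and 2, and also when radiated skin of week 3 or 4 was set against sham skin, with -4.06 to -3.15 and -4.07 to -1.37 for radiated week 4. The minus-strand genes are also 2 pairs of related sequences and 4 of the last 5 genes of the cluster, with the plus-strand Skint2 between them, so strand, sequence and place cannot be told apart here.

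Genes around the cluster moved in different directions. Skint11, a further family member that lies after Skint5 on the plus strand and is not among the 10, had log2 fold changes of -2.67 ± 0.90 (SE, adjusted p = 0.0513) and -3.28 ± 0.45 (SE, adjusted p = 0.000253). Before the cluster, Slc5a9, a sugar transporter gene and the nearest protein-coding neighbour, did not pass the test, with 0.58 and -0.38 (adjusted p = 0.561 and 0.554). Spata6 beyond it was higher in radiated skin, by 1.12 and 0.81 on the log2 scale (adjusted p = 0.00236 and 0.000484). After Skint11, Trabd2b was lower at week 4, at -0.74 (adjusted p = 0.00429) after -0.30 at week 3 (adjusted p = 0.615). The pseudogenes Gm12816 and Gm12818, annotated inside the span of Skint6, had -2.12 and -3.17 at week 4 (adjusted p = 0.0319 and 0.00263). How far reads from the surrounding gene enter their counts was not tested.

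Over the 4 weeks, the gap between radiated and control levels changed for 8 of 10 members in a joint model of the 32 radiated and control libraries (F test of the interaction of week and radiation). Of all 19338 genes, 15.6% were called there. Adjusted p-values of the 8 ran from 0.00099 for Skint5 to 0.0208 for Skint2, and Skint1 (0.16) and Skint8 (0.0553) did not pass. With the mouse as a block, 9 were called, Skint8 being the gain. The count was 2 without the libraries numbered 3, 4 without those numbered 1 and 6 without those numbered 2.

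Of the 3 steps from week to week, only the one between weeks 2 and 3 had members called. In that step the difference fell by 3.52 for Skint10, 3.47 for Skint5 and 2.09 for Skint3 on the log2 scale. Their adjusted p-values were 0.0229, 0.0243 and 0.0234, and the other 7 members were not called, while 6.9% of all genes were. With the mouse as a block Skint6 was called too. No member was called in the step from week 1 to 2 or from week 3 to 4, where 0% and 0.419% of all genes were called. No member had an unadjusted p under 0.05 in either step, and the steps were not run with another tool.

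Sham skin gave a second reference, shared by all the comparisons that follow. In radiated skin of week 4 all 10 members were called lower than in sham, with 26.7% of 18346 genes called and 11.5% called lower. The members' log2 fold changes ran from -4.07 for Skint7 and -4.06 for Skint5 to -1.37 for Skint8, with a median of -2.98 beside -0.03 over all genes. Skint1 was the least secure of these, at -2.16 ± 0.69 (SE, adjusted p = 0.0486), and its call was lost without 5 of the 7 libraries in turn, which left 9 members called. At week 3 all 10 members had log2 fold changes below 0 against sham and an unadjusted p under 0.05. For 8 of them every radiated library lay below every sham library. The shares of all genes that meet these looser measures are not given here, so both counts are description only. Of the 10 members, 5 were called lower after adjustment (Skint4, Skint5, Skint7, Skint8 and Skint10), with 18.2% of all genes called and 7.75% called lower. The count was 10 with the replicate number as a block or in 1 fit of all libraries. It was 2 without sham replicate 1, sham replicate 2 or radiated replicate 2, 1 without sham replicate 3, 3 without radiated replicate 1 or 3, and 9 without radiated replicate 4. At week 2 Skint8 was the member called, with -1.28 ± 0.28 (SE, adjusted p = 0.038), beside 5.06% of all genes. That call was lost with the block and without 6 of the 7 libraries in turn. At week 1 none was called, with 1.75% of all genes called, none at an unadjusted p under 0.05, and none by DESeq2.

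Some Skint genes were also called between control and sham skin, but these calls depended on the settings and libraries used, as given below. At week 4, Skint5, Skint6, Skint9 and Skint10, the minus-strand members, were higher in control skin, with 3.65% of all genes called and 1.76% called higher. Skint10 had 34.2, 40.6, 42.7 and 34.9 CPM in control skin against 22.5, 20.4 and 19.5 CPM in sham skin, and the fitted log2 change was 0.86 ± 0.13 (SE, adjusted p = 0.0161). Skint5 had 104, 117, 135 and 105 against 79.4, 46.7 and 48.7 CPM, and the fitted log2 change was 0.97 ± 0.20 (SE, adjusted p = 0.0402). The ranges of both genes are apart. The log2 fold change of Skint6 was 0.96 ± 0.19 (SE, adjusted p = 0.035) and that of Skint9 0.81 ± 0.18 (SE, adjusted p = 0.0493). The mean sums of both keratinocyte lists were also above sham: the suprabasal list summed to 32596 ± 2169 CPM in control skin of week 4 (SD, n = 4) and 17742 ± 4688 CPM in sham skin (n = 3), with 4 of its 12 genes called higher, and the basal list to 18685 ± 1801 and 13657 ± 4188 CPM, with none of 8 called. On the log2 scale, the mean ratio of the Skint sum to the suprabasal list stood at -5.53 for these control samples and -5.36 for sham, and that to the basal list at -4.72 and -4.96. Their part in the Skint difference was not tested.

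At week 3, Skint7 and Skint8 were lower in control than in sham skin, with 11.4% of all genes called. Skint7 had 19.2, 17.1, 22.9 and 15.6 CPM against 39.5, 28.5 and 49.9 CPM, and Skint8 had 7.29, 5.73, 6.55 and 5.88 against 11.0, 12.5 and 13.1 CPM. The log2 fold changes were -1.09 ± 0.22 (SE, adjusted p = 0.0196) and -0.96 ± 0.18 (SE, adjusted p = 0.0174). Skint8 was also called lower at week 2, at -0.88 ± 0.19 (SE, adjusted p = 0.0499), with 2.44% of all genes called. No member was called at week 1, where 4.92% of all genes were, while DESeq2 called 2 members. There 5 members had an unadjusted p under 0.05, and the share of all genes under that threshold is not given here. None of these control-to-sham calls was kept with the replicate number as a block, which pairs different mice here, or in 1 fit of all 35 libraries. The week 4 count ran from 0 to 4 and the week 3 count from 0 to 4 as each library was left out. Hair follicle genes (8 keratins and Tchh) varied between these groups. Their summed level was 2177, 28599 and 34679 CPM in the 3 sham libraries. It was 18.9 to 7037 CPM in control skin of week 1, 9.13 to 2548 CPM at week 2, 21.4 to 1933 CPM at week 3 and 21.8 to 33.7 CPM at week 4, so single libraries of weeks 1 and 2 lay above the lowest sham library. Skeletal muscle genes summed to 22764 ± 6297 CPM in control skin of week 3 and 8492 ± 3496 CPM in sham skin, with 2 of 4 called higher in control skin (Myh4 and Ckm). The part of either tissue in these differences was not tested.

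Since Skint transcripts come from keratinocytes, the epidermal markers of the same libraries are set beside them. In bulk skin, fewer keratinocytes and less Skint RNA per keratinocyte cannot be told apart. The basal list (Krt5, Krt14, Krt15, Col17a1, Itga6, Itgb4, Trp63 and Dst) summed to 15173 ± 1475 CPM in control and 12670.2 ± 4223 CPM in radiated skin at week 3, and to 18685 ± 1801 and 13925 ± 1179.9 CPM at week 4 (SD, n = 4). Of its 8 genes 5 were called lower and 1 higher in each week (3 lower and 1 higher at week 3 with total-count scaling), beside 13.6% of all genes called lower at week 3 and 24.2% at week 4: Krt14, a keratin of basal cells, rose by 2.03 on the log2 scale at week 4 (adjusted p = 3.4e-06), and Krt15, a keratin of resting basal cells, had -4.48 (adjusted p = 0.000841). The suprabasal and granular list of 12 genes had a larger drop in its mean sum, from 32596 ± 2169 CPM in control to 7492 ± 4080.5 CPM in radiated skin at week 4, where 9 of 12 were called lower and none higher. At week 3 its sum was 23575 ± 3737 CPM in control and 10119.9 ± 11017 CPM in radiated skin, and 5 of 12 were called lower (4 with total-count scaling).

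The Skint sum was also lower relative to both lists. Relative to the basal list, its log2 ratio in radiated minus control skin was -2.79 at week 3 and -2.99 at week 4, lower in 4 of 4 pairs in both weeks. Relative to the suprabasal list it was -1.09 at week 3, lower in 3 of 4 pairs, and -1.07 at week 4, lower in 4 of 4. At weeks 1 and 2 the differences were -0.44 and -0.52 to the basal list and -0.57 and -0.36 to the suprabasal list, lower in 3 of 4 pairs except for the suprabasal ratio of week 1, which was lower in 4 of 4. These ratios are descriptions with no test. At week 4 the basal sum included Krt14, called higher, and 5 genes called lower, so its ratio is not one to basal keratinocytes as a whole. Other cells of skin moved in the same libraries, where 27.2% of all genes were called at week 3 and 48.4% at week 4. Of the 7 wound keratinocyte genes, the 4 keratins, Krt6a, Krt6b, Krt16 and Krt17, were above the low-count filter in every library and were called higher in both weeks. S100a8 and S100a9 in both weeks, and Sprr1b at week 4, passed the filter through the radiated libraries, where they were higher, so their calls are not counted here. The sums of all 7 were 4912 to 15892 CPM in radiated and 709 to 853 CPM in control skin at week 3, and 10348 to 13672 against 495 to 556 CPM at week 4. The 4 fibroblast genes were all called higher at week 4, with sums of 22391 to 36006 CPM in radiated and 1545 to 3530.2 CPM in control skin. None was called at week 3, where total-count scaling called 1, Col3a1. Of 4 skeletal muscle genes, 3 were called lower in each week, and of 7 hair follicle genes tested at week 4, the 3 above the filter in every library were called higher. The hair follicle sums in the radiated libraries of week 4 were 258, 19.9, 5907 and 68.1 CPM, so replicate 3 carries most of the mean and replicate 2 is below every control library (21.8 to 33.7 CPM). The part of these shifts in the Skint levels was not tested.

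Single libraries show how the measures part. Radiated replicate 4 of week 3 had a suprabasal sum of 26079 CPM, inside the control range of 19279 to 26946 CPM, and its Skint sum was 176 CPM, where the lowest control library had 391 CPM. Replicate 3 had a suprabasal sum of 7858 CPM and a Skint sum of 21.3 CPM, while replicate 2 had less suprabasal signal, 5558 CPM, and more Skint signal, 90.4 CPM. Replicate 1 was lowest in suprabasal genes, at 984 CPM, with a Skint sum of 25.3 CPM. The order of the 4 libraries by suprabasal sum is thus not their order by Skint sum.

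**Figure D3:**
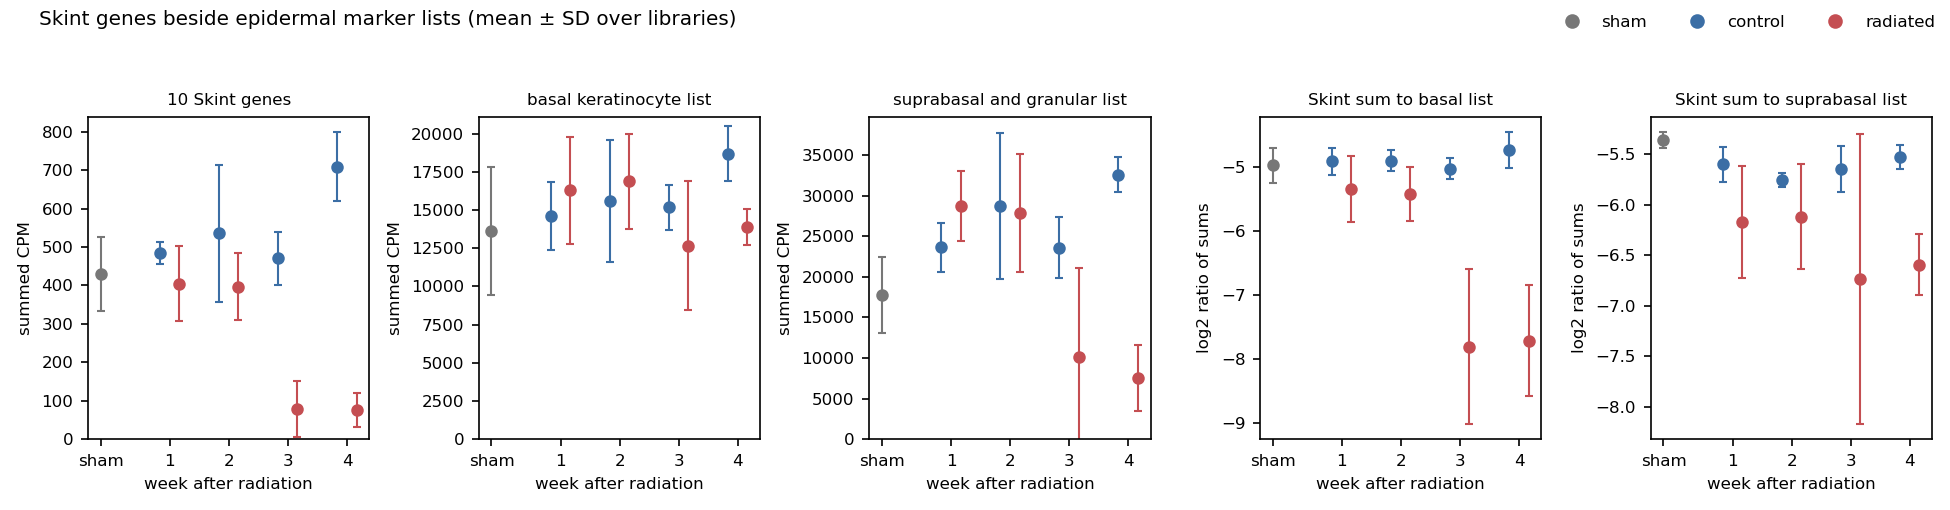
Summed CPM of the 10 Skint genes, the 8 basal and the 12 suprabasal and granular marker genes, and the log2 ratio of the Skint sum to each list, by week after radiation, where points are group means and bars ± SD over 3 sham or 4 other libraries. The ratio to the basal list falls at weeks 3 and 4, and the radiated suprabasal sum of week 3 has an SD larger than its mean.

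Genes of the T cells that the Skint proteins act on moved in both directions. The DETC list held 20 symbols for genes of the receptor, its signalling chains and surface molecules, of which 17 matched the table. The others, Tcrg-C1, Tcrg-V5 and Amica1, are further names of Trgc1, Trgv5 and Jaml, which matched. None was called at weeks 1 and 2, where 15 and 14 were tested. At week 3, 5 of 12 tested were called higher and none lower, and at week 4, 6 of 15 were higher and 3 lower, beside 27.2% of all genes called at week 3 and 48.4% at week 4 (24.2% lower). The list's medians were 1.01 and 0.11. With total-count scaling the week 3 count was 7 higher, with Il2rb and Klrk1 gained. The week 4 count was also 7 higher, with Cd3d gained (adjusted p = 0.044), and 3 lower. Lower at week 4 were Trgc1, a constant segment of the gamma chain, at -1.72 ± 0.40 (SE, adjusted p = 0.0059), Trdv4, the delta variable segment of the DETC receptor, at -1.47 ± 0.43 (SE, adjusted p = 0.0181), and Cd3e, a signalling chain of all T-cell receptors, at -1.23 ± 0.17 (SE, adjusted p = 0.000244). Trdv4 and Trgc1 are scarce here, at 1.09 and 2.31 CPM in control skin of week 4 and 0.387 and 0.69 CPM in radiated skin, and at week 3 they did not pass the low-count filter. At week 4 both passed it through the control libraries, with 3 of 4 radiated libraries at its minimum, so their calls add nothing to the list's count, which without them is 1 lower, Cd3e. Higher at week 4 were Trdc, the delta constant region, at 1.08 ± 0.27 (SE, adjusted p = 0.00864), Jaml, a costimulatory receptor of DETCs that other leukocytes also carry, at 1.76 ± 0.19 (SE, adjusted p = 5.9e-05), and Fcer1g and Sema4d, which many leukocytes express, at 2.90 and 1.82. Trdc is used by every gamma-delta T cell, so DETCs and other gamma-delta T cells cannot be told apart from it.

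Genes for ligands and factors of the skin around DETCs moved both ways. The list mixes sources: beside keratinocyte genes it holds Fgf7, Fgf10 and Igf1, growth factors that fibroblasts or DETCs make and that act on keratinocytes. Of 17 listed, 4 were called higher and 3 lower of 15 tested at week 3, and 6 higher and 6 lower of 16 at week 4, against the same 27.2% and 48.4% of all genes called in either direction. Among the higher ones were Fgf7 in both weeks, at 1.75 and 2.49, and Igf1 at week 4, at 0.70, where fibroblast genes were higher too. Ccl27b in both weeks and Raet1e and Tslp at week 4 passed the low-count filter through the group where they are high, so their calls add nothing to these counts. Among genes above the filter in every library, 4 were called higher and 2 lower of 14 at week 3. At week 4 the counts were 4 higher and 5 lower of 13. Lower in both weeks were Cdh1, described below, and Ccl27a and Ccl27b, which encode the skin chemokine that draws T cells with the receptor Ccr10, at -2.46 and -3.19 at week 3 and -3.77 and -5.80 at week 4. In control skin of week 4 they stood at 83.0 and 38.0 CPM and in radiated skin at 6.06 and 0.656 CPM. With total-count scaling the week 3 counts were 4 higher and 1 lower, and the calls of Ccl27b (adjusted p = 0.0562) and Cdh1 (adjusted p = 0.0517) were lost. Cxadr, the epithelial ligand of Jaml, was lower at week 4, at -1.21 ± 0.21 (SE, adjusted p = 0.0012), and Cdh1, the adhesion molecule that holds DETCs among keratinocytes, was at -0.79 ± 0.16 (SE, adjusted p = 0.00675) at week 3 and -0.84 ± 0.14 (SE, adjusted p = 0.000702) at week 4. Higher at week 4 were Ulbp1 and Raet1e, stress ligands of the receptor Nkg2d, at 1.61 and 3.07, with H60c, another such ligand, lower at -0.75 ± 0.27 (SE, adjusted p = 0.0435). H60c was not called with total-count scaling (adjusted p = 0.0685). Plxnb2 was called higher there (adjusted p = 0.0223), which made 7 higher and 5 lower at week 4. Of the other butyrophilin relatives, 7 were tested at week 3 and 6 at week 4, Skint11 included: Btnl2 was higher in both weeks, at 1.02 and 0.72, and Skint11, which passed the filter through the control libraries, was the one called lower, at week 4.

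**Figure D4:**
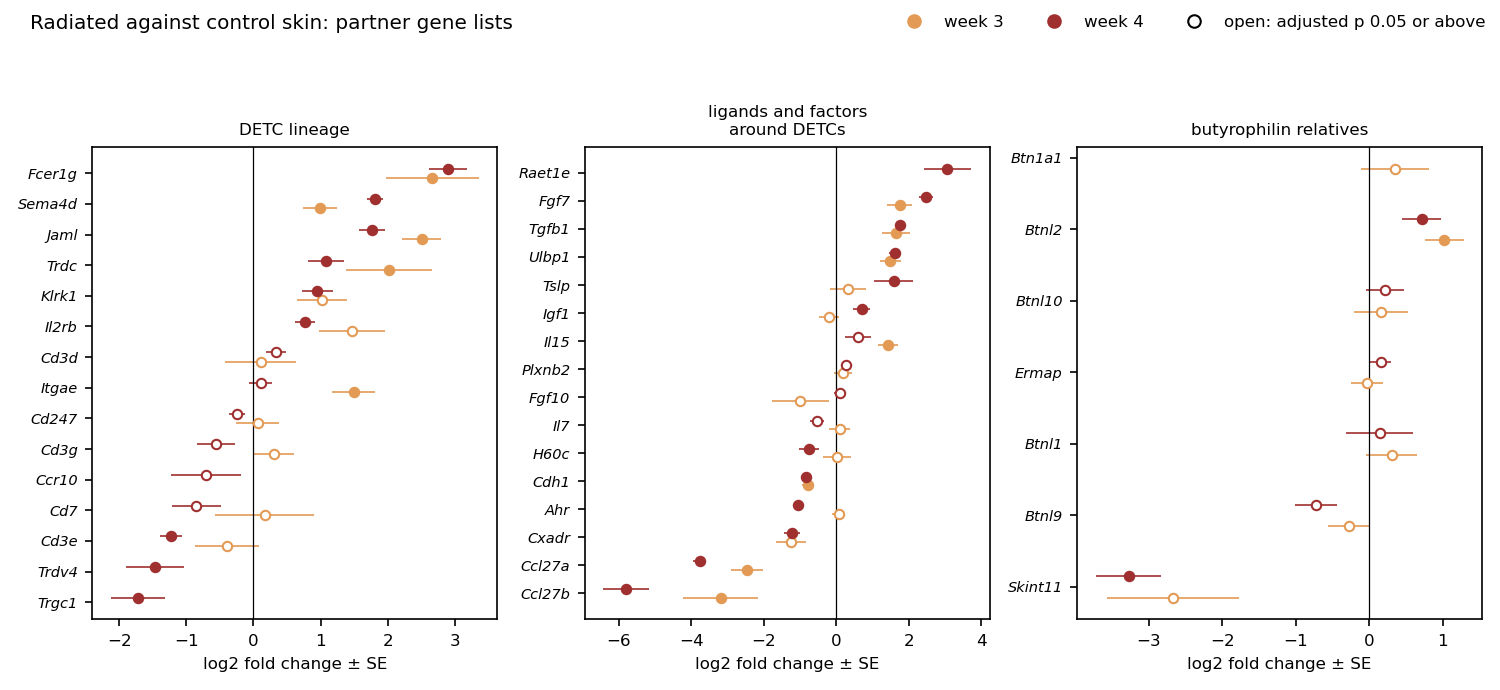
Log2 fold change (± SE) of radiated against control skin for 3 lists of partner genes (DETC lineage, ligands and factors around DETCs, butyrophilin relatives) at weeks 3 and 4 (4 libraries a group). Filled points have an adjusted p under 0.05. The DETC list and the keratinocyte ligands spread to both sides of 0. Ccl27b is lowest, at -5.80 at week 4, and passed the low-count filter through the control libraries.

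Within groups the members varied together to different degrees. After each group's mean was removed from log2 CPM, Pearson's r over the 35 libraries was 0.98 for Skint9 with Skint10 and 0.97 for Skint5 with Skint6, and Skint1 reached 0.95 with Skint6. Skint7 and Skint8 were close to each other (r = 0.90) and less close to Skint2 (r = 0.46 and 0.44), and Skint4 with Skint8 had r = 0.47. These values are descriptions: the points share library and depth, the spread within radiated weeks 3 and 4 weighs most, and pairs that share reads are tied by the counting.

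**Figure D5:**
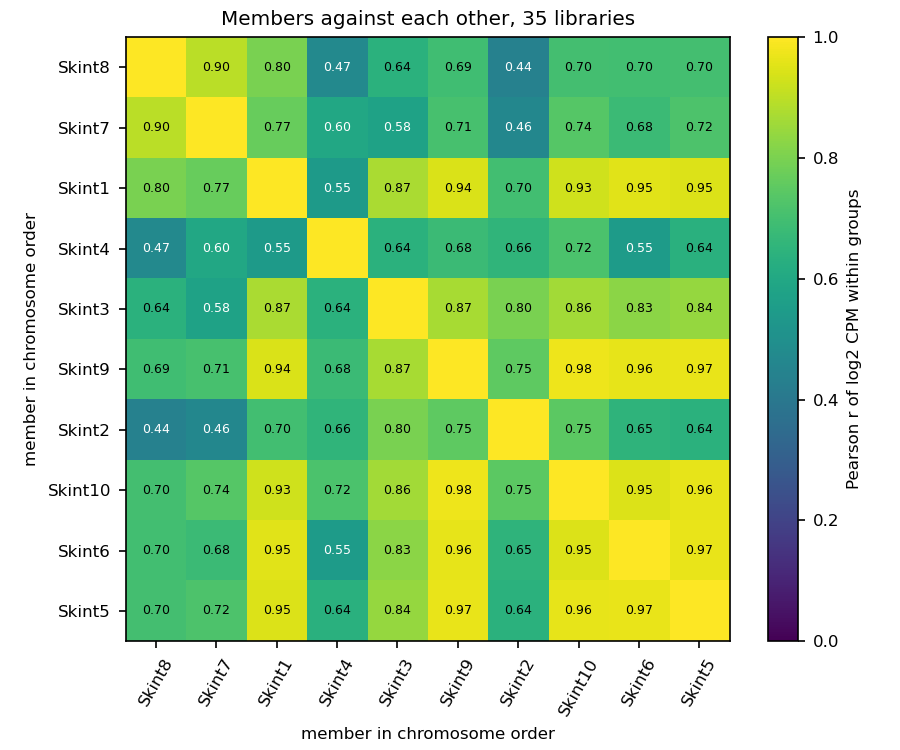
Pearson's r of log2 CPM between members within groups, over 35 libraries, in chromosome order on both axes. The block of Skint1, Skint5, Skint6, Skint9 and Skint10 has the highest values and Skint2 with Skint8 the lowest, at 0.44.

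The genes most like the members in this sense, by r with the mean log2 CPM of the 10 over the same 35 libraries, were sought among 16395 others with a symbol and a mean of at least 1 CPM. They were Mrgprb11-ps (r = 0.966), Bbox1 (0.966), Mrgprb3 (0.949), Krt15 (0.949), Alox12e (0.943) and Gprin2 (0.935). Bbox1 encodes an enzyme of carnitine synthesis, Alox12e an epidermal lipoxygenase, and Mrgprb3 a receptor of the Mas-related family. Their log2 fold changes at week 4 ran from -3.45 for Alox12e to -5.61 for Mrgprb11-ps. Bbox1 held 3.07, 7.88, 4.53 and 0.402 CPM in radiated against 81.7, 105, 94.0 and 89.5 CPM in control skin, with no overlap and replicate 4 lowest, as for the members. Skint11 ranked in place 10, with r = 0.921. The median r of the DETC list was 0.13, that of the suprabasal list 0.56 and that of the wound keratinocyte list -0.27.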

How the data were processed

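Bulk RNA of mouse skin was measured in 35 libraries of 9 groups. The authors deposited 1 table of estimated counts per gene, and per the submitters' processing notes reads were trimmed with Trim Galore 0.6.7, assigned with kallisto 0.46.2 and related to mm10 (GRCm38). The transcriptome release and the step from transcripts to genes are not given in the sources used here. Per the labels' protocols, the authors also used DESeq2. All columns matched a sample, and 0 did not.

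Estimated counts were rounded and fitted with edgeR 4.0.16 in R 4.3.3 (filterByExpr, TMM scaling, quasi-likelihood F test, Benjamini-Hochberg adjustment over all genes tested). There were 12 fits of pairs of groups, a joint fit of 32 libraries, and 3 contrasts of successive weeks added after the data were seen. The fits were tested on simulated data. Log2 CPM used a prior count of 2. Alternatives were DESeq2 1.42.0, other scalings, no filter, a replicate block, 1 fit of all libraries, and leaving out each library. Gene positions came from GENCODE, and promoters from RefSeq.

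The text names all 10 members, the 6 genes most like them, the genes next to the cluster, and examples from lists of partner and marker genes. The members and lists were chosen with earlier results of these data known. Genes of other T cells are not reported here.

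Radiated and control skin of 1 week and number were taken as 1 mouse, since 35 samples came from 19 mice. Across 19813 genes, deviations of such pairs from their group means correlated with a mean r of 0.0706, 0.173, 0.0525 and -0.0198 at weeks 1 to 4, against -0.0237, -0.0568, -0.0168 and 0.00738 for other numbers. In comparisons with sham skin the numbers pair different mice.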

Additional observations from a re-analysis of the deposited data

Results flagged for a closer look

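In 6 of 80 groups of 4 libraries (10 members, 8 groups), 1 library stood apart from the others by Dixon's 95% criterion, where chance flags about 1 in 20, or 4. Skint3 had a highest library of 195 CPM in radiated skin of week 2 (others 160.2 to 163) and of 347 CPM in control skin of week 4 (others 193 to 218). Skint6 had a lowest library of 62.8 CPM in control skin of week 1 (others 83.3 to 85.0). Skint7 had a highest library of 41.1 CPM in control skin of week 1 (others 16.0 to 19.2) and of 49.1 CPM in radiated skin of week 1 (others 8.08 to 13.9), and Skint8 one of 13.2 CPM in radiated skin of week 1 (others 7.12 to 7.77). The Skint7 libraries are both replicate 1, taken as 1 mouse.

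Over weeks 1 to 4, the gap between radiated and control levels changed for 8 members by edgeR's quasi-likelihood test. Adjusted p-values were 0.0208 for Skint2, 0.00103 for Skint3, 0.00304 for Skint4, 0.00099 for Skint5, 0.00566 for Skint6, 0.0137 for Skint7, 0.0166 for Skint9 and 0.00242 for Skint10. Between weeks 2 and 3 the difference changed by -2.09 for Skint3 (adjusted p = 0.0234), -3.47 for Skint5 (adjusted p = 0.0243) and -3.52 for Skint10 (adjusted p = 0.0229) on the log2 scale.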

How the results depend on the processing

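At week 4 all 10 members stayed lower in radiated skin, against control, under all 14 alternatives, and none was called at weeks 1 and 2 under any. No member's log2 fold change that was called reversed. At week 3 against control the count of 7 was 6 with total-count scaling, 9 in 1 fit of all libraries and 4 to 10 as each library was left out. With each library or number left out, the count was 2 to 9 for the change over weeks (8 with all) and, against sham skin, 0 to 1, 0 to 2, 1 to 9 and 9 to 10 for radiated weeks 1 to 4, and 0 to 2, 0 to 2, 0 to 4 and 0 to 4 for control weeks 1 to 4.

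For radiated week 2 against sham (1 called), total-count scaling, no filter and 1 fit of all libraries each gave 2, and DESeq2 gave 3. For radiated week 3 against sham (5 called), 1 fit of all libraries gave 10. DESeq2 called 2 members for control week 1 (0 in edgeR), 2 for control week 2 (1 in edgeR) and 4 for control week 3 (2 in edgeR). For control week 2, DESeq2's size factors, no filter and 1 fit of all libraries each gave 0, and total-count scaling gave 2. In 1 fit of all libraries, control weeks 3 and 4 gave 0 (2 and 4 in their own fits). The causes were not tested.

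The replicate block left 7 called at week 3 and 10 at week 4 against control, 9 for the change over weeks and 4 for the step from week 2 to 3. Against sham skin, where the pairing joins different mice, the block gave 0 for radiated week 2, 10 for radiated week 3, and 0 for control weeks 2, 3 and 4. Scaling by total counts lowered the share of higher calls among all called genes from 42.7% to 28.7% in radiated week 2, and from 66.5% to 43.5%, 56.3% to 38.1% and 45.5% to 22.6% in control weeks 1, 2 and 3 against sham. Depth limits Skint9 and Skint10 in radiated week 3, where 3 values lie under 3 counts.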

Other observations

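Before week 3, single radiated libraries combined high wound keratinocyte signal with low Skint levels. Radiated replicate 2 of week 1 had a summed wound keratinocyte level of 14482 CPM and a mean log2 CPM over the 10 Skint genes of 4.29, the lowest of its group. By summed Skint CPM it was not the lowest, with 343 against 299 in replicate 3. Radiated replicate 4 of week 2 had 13962 CPM and 3.78, the lowest of its group on both measures (summed Skint level 288 CPM). Each is 1 library, picked out after its values were seen, and the relation was not tested.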
